A study of Mus musculus with 10 samples.

Results

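The transcripts described here come from 10 genes that mark neutrophils, short-lived white blood cells of the granulocyte lineage, measured in microglial RNA. Microglia are the brain's own macrophages. The genes were S100a8, S100a9, Ngp, Camp, Ltf, Mmp8, Mmp9, Retnlg, Cxcr2 and Csf3r. They were chosen by name, with earlier results of these data known, and all 10 were among the 24453 gene symbols of the table. Counts of members set beside shares of all tested genes are therefore a description. The microglia were isolated from C57bl6 mouse brains with magnetic beads. The 10 libraries formed 4 groups, and all mice were listed as untreated. The 3 libraries called aged are of mice 15 months old, and the 3 called young of mice 10 weeks old. From mice aged 3 months, 2 libraries were labelled Rab7 deltaMG, which the series describes as null mutants, and 2 were labelled Rab7 control. The sources used here name no Cre driver, no allele design and no pooling of animals. Whether replicates are separate animals is not stated either, so a p-value here sets a difference against the spread of these libraries, which may in part be technical.

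Neutrophils mature in the bone marrow in steps, and each step fills another kind of granule. Primary granules, with myeloperoxidase and elastase, are made first, specific granules with lactoferrin and cathelicidin next, and gelatinase granules last. Transcripts of granule proteins fall as the cell matures, while receptors that guide mature cells out of the marrow and into tissue, such as Cxcr2, come up late. Few neutrophils are found in healthy brain tissue, and they are more common in its vessels, its membranes and the marrow of the skull. The genes were therefore set apart by stage. Ngp, Camp, Ltf and Mmp8 were taken as immature granule genes and Cxcr2, Csf3r, Mmp9 and Retnlg as mature neutrophil genes. S100a8 and S100a9 are made at both stages and were put in neither set.

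Levels are given in RPM, that is, reads divided by the total that each library was scaled to. The libraries held 1284423 to 1855072 reads in the listed genes, and the member with the fewest reads, Camp, had 17 to 470 reads per library. The 11 microglial markers, P2ry12, Tmem119 and Cx3cr1 among them, summed to 3615 to 6260.1 RPM, and each of them passed the filter on low values. Rab7 was not lower under the label deltaMG, at 72.2 and 79.4 RPM against 64.2 and 67.5 RPM under the label control. Both groups are therefore called by their labels. The young libraries had Xist, the RNA of the inactive X chromosome, at 1715 to 1771 RPM, and the aged libraries had 4 Y-linked genes at a sum of 35.7 to 48.7 RPM and Xist at no more than 0.940 RPM. Age and sex cannot be told apart in the ageing comparison. The libraries labelled control and deltaMG carried Xist (924 to 1562 RPM) and Y-linked transcripts (9.11 to 25.8 RPM) together.

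The 250 bases upstream of the start site are shown for the 4 immature granule genes and for Cxcr2, the member that passed the test in both comparisons. The sequences are from RefSeq (build GRCm38.p6), which held 9 of the 10 members. Mmp9 was the member without an entry. They are written 5′ to 3′ on the strand of the gene. Capitals mark matches on either strand to TTGCNNAA or to GAGGAA. TTGCNNAA is a loose form of the site bound by C/EBP factors, and GAGGAA a core of the kind bound by ETS factors such as PU.1. No match of one motif overlapped a match of the other in these windows.
Ngp (chr9:110419558-110419807, plus strand): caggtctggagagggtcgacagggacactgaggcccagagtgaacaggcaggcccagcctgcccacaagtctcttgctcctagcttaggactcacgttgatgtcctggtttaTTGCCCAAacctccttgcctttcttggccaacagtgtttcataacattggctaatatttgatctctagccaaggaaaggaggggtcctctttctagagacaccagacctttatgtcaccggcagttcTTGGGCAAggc
Ltf (chr9:111019042-111019291, plus strand): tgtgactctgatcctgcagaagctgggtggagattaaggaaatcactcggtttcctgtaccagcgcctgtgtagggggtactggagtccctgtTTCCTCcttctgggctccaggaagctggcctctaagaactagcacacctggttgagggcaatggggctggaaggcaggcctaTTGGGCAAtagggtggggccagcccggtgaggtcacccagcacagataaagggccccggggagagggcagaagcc
Camp (chr9:109849457-109849706, minus strand): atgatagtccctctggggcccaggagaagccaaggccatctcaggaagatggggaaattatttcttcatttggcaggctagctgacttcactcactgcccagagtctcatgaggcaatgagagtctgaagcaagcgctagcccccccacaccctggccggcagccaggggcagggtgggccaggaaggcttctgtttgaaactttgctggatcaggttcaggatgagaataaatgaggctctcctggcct
Mmp8 (chr9:7558179-7558428, plus strand): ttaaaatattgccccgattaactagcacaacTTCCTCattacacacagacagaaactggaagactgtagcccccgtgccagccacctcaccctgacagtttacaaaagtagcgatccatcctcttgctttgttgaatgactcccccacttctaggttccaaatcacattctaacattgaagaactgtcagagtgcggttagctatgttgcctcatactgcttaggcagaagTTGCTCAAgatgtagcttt
Cxcr2 (chr1:74153744-74153993, plus strand): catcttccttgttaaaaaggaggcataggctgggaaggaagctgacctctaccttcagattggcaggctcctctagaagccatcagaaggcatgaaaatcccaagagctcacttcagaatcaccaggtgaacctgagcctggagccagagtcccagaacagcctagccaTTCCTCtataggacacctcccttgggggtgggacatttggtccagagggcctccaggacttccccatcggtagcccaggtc
The C/EBP pattern was in 5 of 9 members' windows and in 9.57% of 32536 such windows of all genes. It lay 138 and 11 bases upstream in Ngp, 75 bases upstream in Ltf, 19 in Mmp8, 236 in S100a9 and 246 in Retnlg, counted from the RefSeq start to the first base of the match. The ETS pattern was also in 5 of 9 windows, against 23.4% of all windows, at 170 and 36 bases upstream in S100a8, 81 in Cxcr2, 86 in Csf3r, 157 in Ltf and 219 in Mmp8. Camp had neither. The RefSeq start lies inside the GENCODE M21 gene model for S100a8, Csf3r, Ngp, Camp, Ltf and Cxcr2. The near end of these windows, and most of the Camp window, is therefore inside that model, as are the matches 11 bases upstream in Ngp, 36 in S100a8 and 86 in Csf3r. A match is a string of letters, and no binding was measured. In mouse, Cebpe encodes the C/EBP factor that specific granule genes need, and its own transcript was at 0.282 to 4.57 RPM, under the filter.

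Ngp, Camp and Ltf lie on chromosome 9 (GRCm38), Camp at 109847379 to 109849617 on the minus strand, Ngp at 110419747 to 110423012 and Ltf at 111019271 to 111042767, both on the plus strand. Mmp8 is on the same chromosome, at 7558456 to 7568485. S100a8 and S100a9 are neighbours on chromosome 3, at 90668978 to 90670035 on the plus and 90692632 to 90695721 on the minus strand. Cxcr2 is on chromosome 1, Mmp9 on 2, Csf3r on 4 and Retnlg on 16. All are protein-coding in GENCODE M21.

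Levels can be compared between genes only per length, so RPM was divided by the summed exon length. On this scale the mean over 10 libraries was 872 RPM per kb for S100a9, 328 for S100a8, 194 for Ngp, 69.1 for Retnlg and 41.2 for Csf3r. Below these came Mmp8 at 26.8, Cxcr2 at 23.9, Camp at 21.7, Ltf at 14.4 and Mmp9 at 6.72 RPM per kb. S100a9, then S100a8, then Ngp led the order in every library, and Mmp9 was last in every library. The middle of the order changed between libraries. Csf3r came next after Ngp in young replicate 1 and in both libraries labelled control, and in aged replicate 3 only Mmp9 was below it. The 10 genes together summed to 0.207% to 1.81% of the listed signal.

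**Figure D1:**
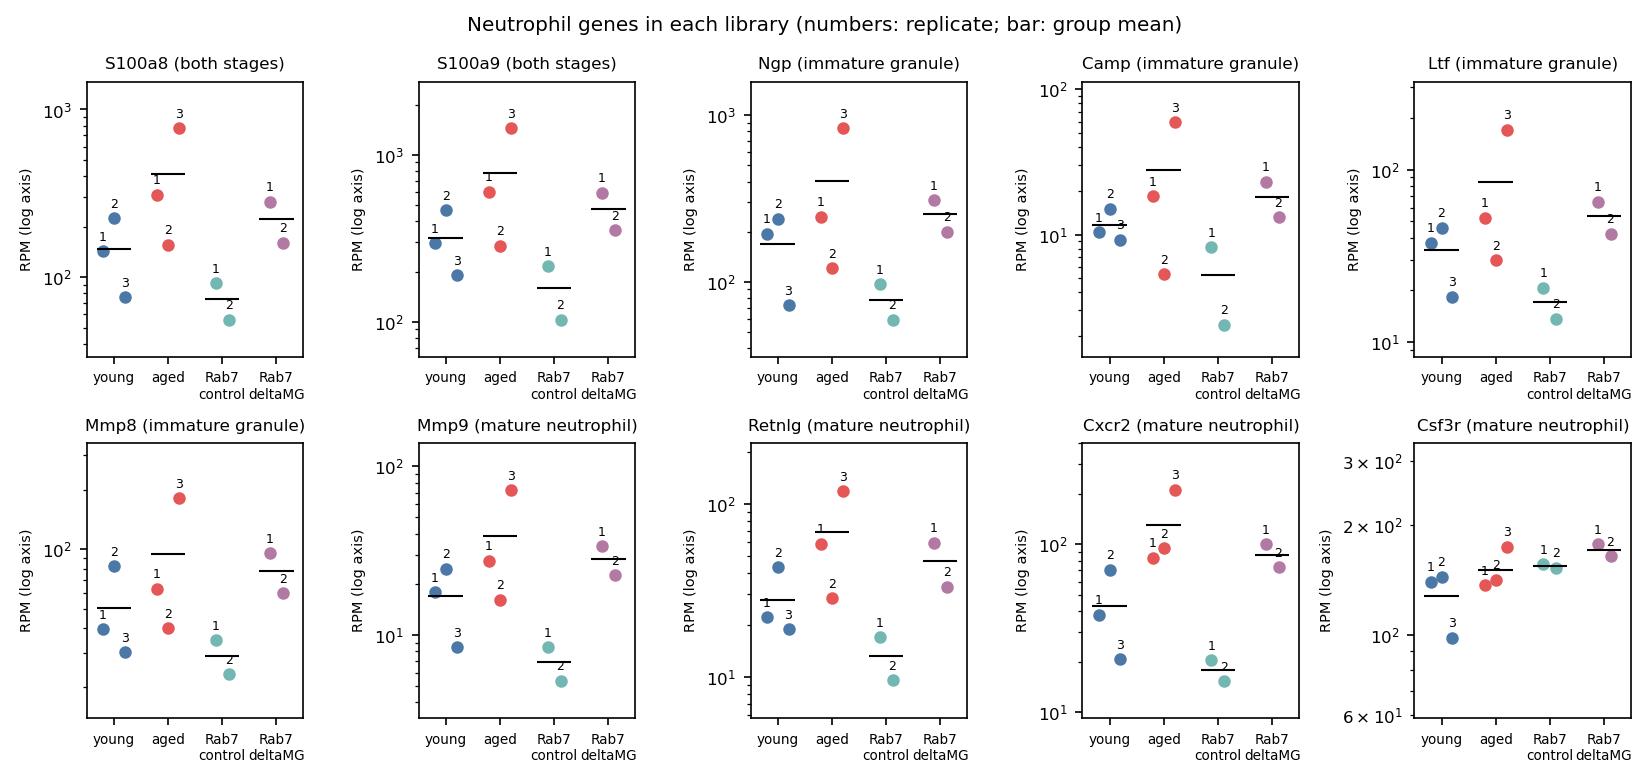
RPM (log axis, scaled for each gene) of the 10 neutrophil genes in each library, with points numbered by replicate and a bar at the group mean. Aged replicate 3 is the highest library for 9 genes, and Csf3r alone spans only 98.2 to 177 RPM.

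S100a8 and S100a9 encode the calcium- and metal-binding subunits of calprotectin, the most abundant protein of the neutrophil cytosol. S100a8 was at 143, 224 and 75.7 RPM in young replicates 1, 2 and 3 and at 311, 156 and 773 RPM in aged replicates 1, 2 and 3. In the Rab7 experiment it was at 91.8 and 55.8 RPM under the label control and at 282 and 160.3 RPM under the label deltaMG. Aged replicates 1 and 3 lay above all young libraries and aged replicate 2 lay among them, whereas both libraries labelled deltaMG lay above both labelled control. The log2 fold change, here and below on the log2(RPM + 1) scale, was 1.31 (SE 0.46) with age, and the limma adjusted p of 0.112 missed the threshold of 0.05. It was 1.56 (SE 0.57) for deltaMG against control, with a limma adjusted p of 0.144.

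S100a9 was at 297, 466 and 189.9 RPM in the young and at 602, 285 and 1446 RPM in the aged libraries. The label control had 214 and 103 RPM and the label deltaMG 594 and 354 RPM. The order of the libraries within each group was that of S100a8. The ratio of S100a8 to S100a9 stayed between 0.399 and 0.547 over the 10 libraries, while each gene alone spanned 13.8-fold and 14.1-fold. The log2 fold change was 1.08 with age (limma adjusted p = 0.184) and 1.62 for deltaMG against control (limma adjusted p = 0.128).

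Ngp, neutrophilic granule protein, is related to cystatins and cathelicidins. Its values were 194, 239.6 and 72.4 RPM in young, 245, 121 and 839 RPM in aged, 96.4 and 59.1 RPM in control and 309 and 199.9 RPM in deltaMG libraries, each in the order of their replicates. Aged replicate 2 was lower than young replicates 1 and 2, and aged replicate 3 was higher than any other library. The log2 fold change was 0.96 with age (95% interval -0.19 to 2.10, limma adjusted p = 0.33) and 1.71 for deltaMG against control (0.30 to 3.11, limma adjusted p = 0.169).

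Ltf, lactoferrin, binds iron in the specific granules. It was at 37.7, 46.1 and 18.3 RPM in young and 52.6, 29.9 and 171 RPM in aged libraries, and at 20.7 and 13.7 RPM under the label control and 65.0 and 42.5 RPM under the label deltaMG. It kept close to Ngp, with a ratio to it of 0.192 to 0.252 over all libraries. Its log2 fold change was 1.01 with age (limma adjusted p = 0.224) and 1.59 for deltaMG against control (limma adjusted p = 0.14).

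Camp encodes the precursor of the antimicrobial peptide cathelicidin. It was at 10.4, 15.1 and 9.21 RPM in young and 18.3, 5.35 and 59.7 RPM in aged libraries, and at 8.17 and 2.397 RPM in control and 23.1 and 13.2 RPM in deltaMG libraries. Aged replicate 2 was below all young libraries here, and with aged replicate 3 left out the age difference changed sign (-0.15 against 0.66 with it). Camp had the widest span of the members, 24.9-fold from the lowest to the highest library, and its ratio to Ngp ranged from 0.0406 to 0.127. The limma adjusted p was 0.572 with age and 0.201 for deltaMG against control, at a log2 fold change of 1.73.

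Mmp8 encodes neutrophil collagenase. Young libraries had 39.4, 82.2 and 30.1 RPM and aged libraries 63.1, 39.97 and 182 RPM of it, while control libraries had 34.8 and 23.3 RPM and deltaMG libraries 95.3 and 60.0 RPM. Both aged replicates 1 and 2 fell within the young range. Its log2 fold changes were the smallest of the 4 immature granule genes for deltaMG against control (1.38, limma adjusted p = 0.171) and the second smallest with age (0.73, limma adjusted p = 0.366).

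Among the mature neutrophil genes, Cxcr2 was the one that passed the limma threshold in both comparisons. It encodes the receptor for neutrophil chemokines such as Cxcl2. It was at 38.1, 70.7 and 20.7 RPM in young and at 83.3, 94.9 and 211 RPM in aged libraries, so the 2 groups did not overlap. Under the label control it was at 20.5 and 15.4 RPM and under the label deltaMG at 100.4 and 73.1 RPM, again without overlap. It rose 3.04-fold with age (log2 1.60, SE 0.37, limma adjusted p = 0.0206) and 4.62-fold for deltaMG against control (log2 2.21, SE 0.45, limma adjusted p = 0.0117). Both calls depended on single libraries. With age the limma adjusted p was 0.0757 without young replicate 1 and 0.0723 without young replicate 3, where 1.64% and 1.47% of all tested genes were called higher. For deltaMG against control the limma adjusted p was 0.0923 and 0.128 without control replicates 1 and 2 and 0.159 and 0.0505 without deltaMG replicates 1 and 2.

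Mmp9, gelatinase B of the late granules, was at 18.0, 24.8 and 8.49 RPM in young, 27.6, 16.3 and 72.4 RPM in aged, 8.47 and 5.36 RPM in control and 33.7 and 22.7 RPM in deltaMG libraries. Retnlg, a resistin-like secreted protein, was at 22.1, 43.0 and 18.9 RPM in young, 58.9, 28.5 and 118.6 RPM in aged, 16.9 and 9.59 RPM in control and 59.9 and 33.3 RPM in deltaMG libraries. Aged replicate 2 lay within the young range for both genes. For deltaMG against control they came close to the threshold, at log2 fold changes of 1.89 and 1.73 with limma adjusted p of 0.0613 and 0.0733. With age the limma adjusted p was 0.194 for Mmp9 and 0.122 for Retnlg.

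Csf3r, the receptor for the granulocyte growth factor G-CSF, is also transcribed by mouse microglia and went apart from the rest. It was at 139.9, 144 and 98.2 RPM in young, 137, 142 and 175 RPM in aged, 156 and 153 RPM in control and 177 and 164 RPM in deltaMG libraries. Its span was 1.81-fold, where the other 9 members spanned 7.82-fold to 24.9-fold. Its log2 fold change was 0.25 with age (95% interval -0.06 to 0.57, limma adjusted p = 0.358) and 0.14 for deltaMG against control (-0.25 to 0.53, limma adjusted p = 0.74). It made up 34.7% of the summed RPM of the 10 genes in control replicate 2 and 4.32% in aged replicate 3.

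**Figure D2:**
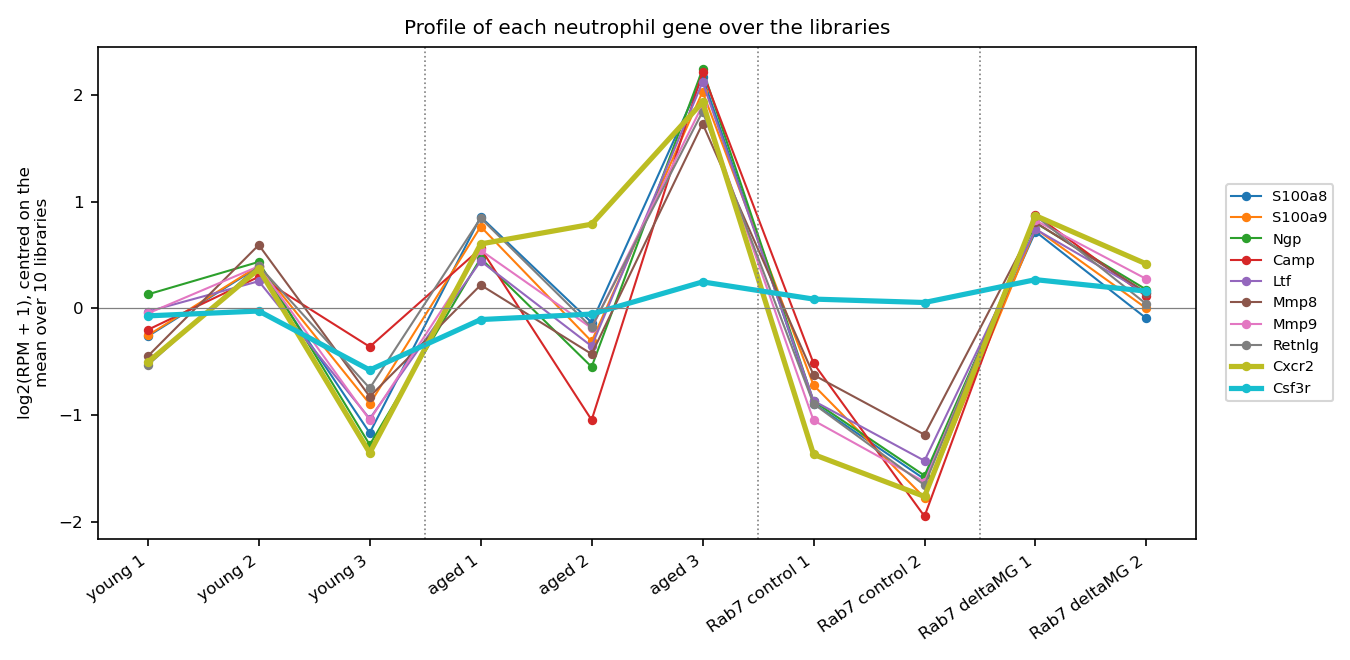
log2(RPM + 1) of each gene, centred on its mean over 10 libraries, by library; lines only join the values of a gene. Cxcr2 (thick, olive) and Csf3r (thick, cyan, nearly flat) are the members higher in aged replicate 2 than in aged replicate 1.

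Apart from Csf3r, the members rose and fell together from library to library. The SD of log2(RPM + 1) over the 10 libraries was 0.88 to 1.19 for these 9 genes. After the library's mean over the other members without Csf3r was subtracted, it was 0.12 for S100a9, 0.13 for Mmp9, 0.14 for Ltf, 0.17 for S100a8 and 0.19 for Retnlg. It was 0.23 for Ngp, 0.29 for Mmp8, 0.42 for Camp and 0.49 for Cxcr2. The largest departure of Cxcr2 was in aged replicate 2, where it lay 1.19 log2 units above the level that its mean relation to the others gave. The ratio of Cxcr2 to S100a9 was 0.333 there and 0.0956 to 0.207 in the other libraries. Camp departed the other way in that library, by -0.88. In bulk RNA, fewer cells of a type and less RNA per cell cannot be told apart.

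The ageing comparison asks how microglial RNA differs between aged and young mice. All 10 members had a positive log2 fold change with age, as did 42.8% of 4151 tested genes, with a median of 1.00 over the members and -0.05 over all tested genes. An unadjusted p under 0.05 was reached by 6 members and, among higher genes, by 9.66% of all, and a log2 fold change of at least 1 by 5 members and 3.04% of all. Of the 10, 1 member was called higher, Cxcr2, where 3.16% of tested genes were called higher. Groups did not overlap for Cxcr2 alone, against 8.41% of tested genes that were higher without overlap. When single libraries were left out, the members' median was lowest without aged replicate 3 and highest without aged replicate 2. The call of Cxcr2 stayed without either of these and, as given above, was lost without young replicate 1 or young replicate 3. Summed over the members, aged replicates 1, 2 and 3 had 1599, 918 and 4047 RPM, and the young libraries 939, 1357 and 542 RPM. Without aged replicate 3 the members' median was 0.36 and 1 member was called, while 1.69% of all tested genes were called higher. Without aged replicate 2 the median was 1.57 and 8 of 10 were called, all but Mmp8 and Csf3r, while 6.89% of all tested genes were called higher. With the ageing libraries fitted alone 0 members and 1.66% of all tested genes were called higher by limma, where Cxcr2 had an adjusted p of 0.0668, and with a weight for each library 1 member and 4% were.

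**Figure D3:**
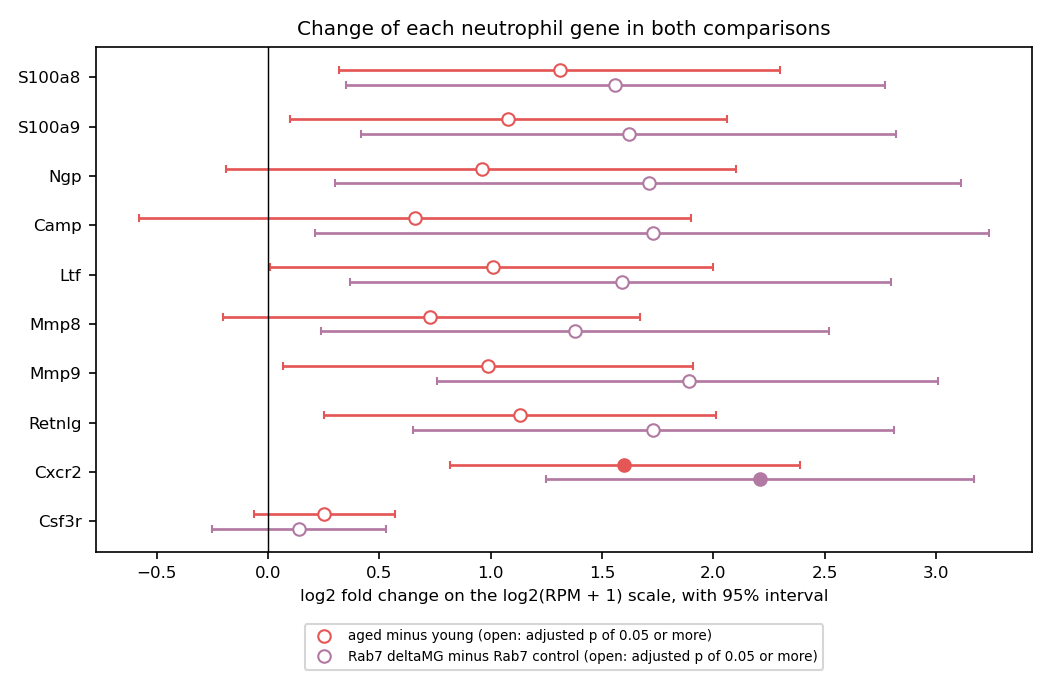
log2 fold change with its 95% interval for each gene, for aged minus young (red) and Rab7 deltaMG minus Rab7 control (purple), with filled points at a limma adjusted p under 0.05. Cxcr2 is filled in both, at 1.60 and 2.21, and Csf3r lies nearest to 0 in both.

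For the libraries labelled deltaMG against those labelled control, the members were higher in both libraries throughout. Each of the 10 was without overlap between the groups, as were 25.2% of tested genes in that direction. A positive log2 fold change was found in all 10 and in 48% of tested genes. The median log2 fold change was 1.66 over the members and -0.02 over all tested genes. A log2 fold change of at least 1 was reached by 9 of 10 members and by 2.84% of tested genes, and an unadjusted p under 0.05 by 9 members and, among higher genes, by 8.87% of all. After adjustment 1 member was called higher, Cxcr2, where 1.2% of tested genes were called higher. The 4 groups shared 1 estimate of the spread, and the count changed with the settings and with the libraries that entered this estimate. The count was 0 with a replicate block, where 16 of 4151 tested genes were called higher. It was also 0 without a filter, where 22 of 18007 were. As given above, the call of Cxcr2 depended on each of the 4 Rab7 libraries. When aged replicate 3, a library of the other experiment, was left out, 9 members were called and 3.9% of all tested genes were called higher. Without aged replicate 2 these values were 7 members and 2.38%, and without young replicate 3 they were 2 members and 1.3%. With these 4 libraries fitted alone, at 2 residual degrees of freedom, 9 members and 6.22% of all tested genes were called higher, and with a weight for each library 8 members and 4.24%. The fit of the 4 libraries alone gave Cxcr2 a limma adjusted p of 1.28e-30, smaller than 2 libraries a group can bear out. Its count is therefore not relied on. The member sums were 668 and 440.1 RPM under the label control and 1739.9 and 1123 RPM under the label deltaMG. The young libraries, at 542 to 1357 RPM, overlapped both.

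The difference between the 2 effects was tested for each member. None of the 10 differed at a limma adjusted p under 0.05, where 4.79% of tested genes did, and 0 had an unadjusted p under 0.05, against 18.3% of tested genes. The differences, Rab7 effect minus age effect, ran from -0.11 for Csf3r (95% interval -0.61 to 0.39) to 1.06 for Camp (-0.90 to 3.02). For Cxcr2 it was 0.60 (-0.64 to 1.84). The intervals are wide, and they hold differences of more than 2-fold in both directions for S100a8 and S100a9.

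Immature granule genes and mature neutrophil genes were then compared within each library. As a ratio of sums on the log2 scale, immature to mature was 0.37, 0.44 and -0.17 in young replicates 1, 2 and 3 and 0.31, -0.52 and 1.12 in aged replicates 1, 2 and 3. It was -0.34 and -0.89 in the libraries labelled control and 0.41 and 0.10 in those labelled deltaMG. The aged libraries thus held both the highest and the second lowest ratio, and the difference of means, aged minus young, was 0.09 at SDs of 0.82 and 0.33. Under the label deltaMG the mean ratio was 0.87 higher than under the label control.

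The direction of that last difference turned when Csf3r was left out. Without Csf3r, a choice made after the data were seen, the log2 ratio was 1.80 and 1.70 in the libraries labelled control and 1.34 and 1.29 in those labelled deltaMG, a difference of -0.43. With each gene given the same weight, as a difference of mean log2 values with Csf3r kept, it was 0.11. The difference between aged and young was -0.49 without Csf3r and -0.15 with equal weights. In each of these 3 forms aged replicate 2 had a lower ratio than the other aged and all young libraries, at 0.49 without Csf3r and -0.71 with equal weights. No group difference in stage kept its sign over these 3 forms in either comparison.

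**Figure D4:**
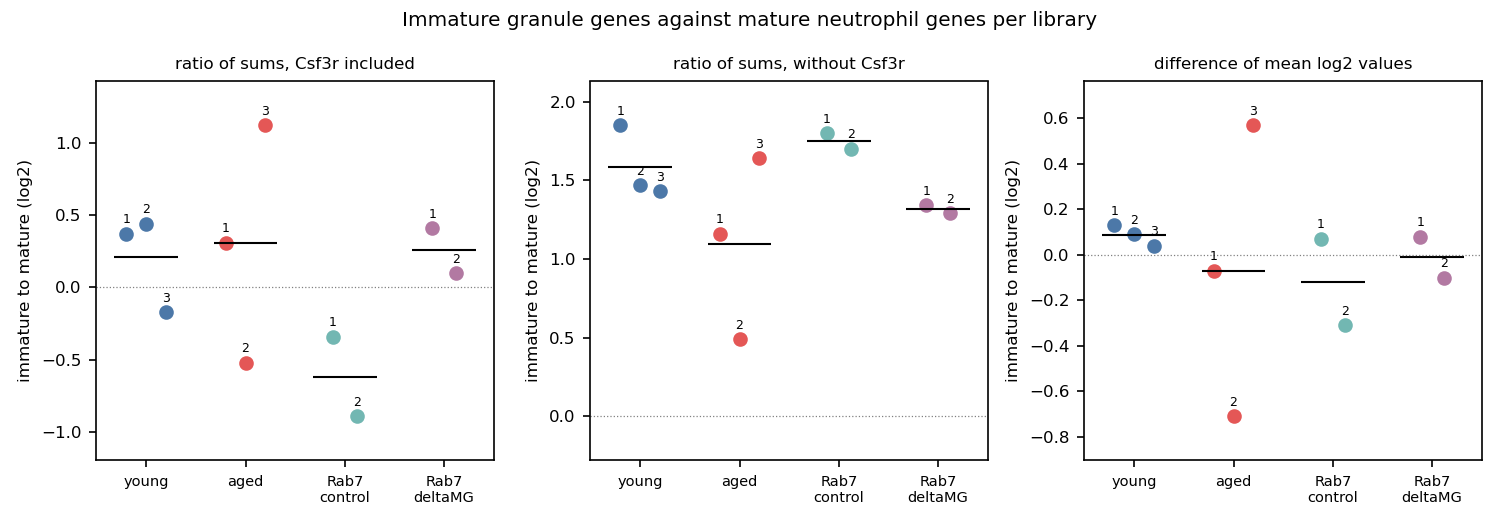
Immature granule genes against mature neutrophil genes on a log2 scale in each library, as a ratio of sums with Csf3r (left), without Csf3r (middle) and as a difference of mean log2 values (right). The libraries labelled deltaMG lie above those labelled control at the left and below them in the middle, and aged replicates 2 and 3 lie furthest apart at the right.

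Genes of earlier stages were looked at beside the members. Mpo, myeloperoxidase of the primary granules, was at 27.1, 34.8 and 7.77 RPM in young and 41.7, 14.0 and 203 RPM in aged libraries. It was at 12.5 and 6.63 RPM in control and 22.1 and 32.5 RPM in deltaMG libraries. Elane, neutrophil elastase, was at 54.5 RPM in aged replicate 3 and at 0.576 to 10.97 RPM in the other libraries. The ratio of Mpo to Ngp was 0.242 in aged replicate 3 and 0.0716 to 0.17 elsewhere, with the lowest value in deltaMG replicate 1. Of 11 primary granule and progenitor genes, 3 passed the filter, and neither Mpo nor Elane was called (limma adjusted p = 0.30 and 0.24 with age, 0.383 and 0.647 for deltaMG against control). The remaining gene, Cd34 of progenitors and endothelium, was at 80.9 and 61.1 RPM in control and 27.9 and 36.9 RPM in deltaMG libraries. Young libraries had 33.8, 37.3 and 23.5 RPM and aged libraries 29.3, 37.9 and 31.0 RPM. Both control libraries thus lay above every other library, and the deltaMG libraries lay within the range of the young and aged ones. Under the label deltaMG the mean was 32.4 RPM ± 6.39, against 71.0 RPM ± 14.0 under the label control (SD, n = 2 each, limma adjusted p = 0.0118). This call was lost in 3 of 20 alternatives, with an adjusted p of up to 0.216 without control replicate 1 and of 0.175 without deltaMG replicate 1.

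Among 14 other granule and oxidase genes, 9 were tested and 0 called in either comparison, where 3.16% and 1.2% of all tested genes were called higher. With age 5 had an unadjusted p under 0.05 and for deltaMG against control 4 had one. Among higher genes, 9.66% and 8.87% of all tested genes reached this. The median log2 fold change was 1.11 with age and 1.13 for deltaMG against control. Lcn2, the siderophore-binding lipocalin of specific granules, was at 51.5, 68.1 and 17.0 RPM in young and 70.8, 46.4 and 254.7 RPM in aged libraries. It was at 20.2 to 25.3 RPM in control and at 62.5 to 82.3 RPM in deltaMG libraries, so young replicate 2 lay within the deltaMG range. Without aged replicate 2, up to 5 of these 9 were called with age, and 6.89% of all tested genes were called higher. Without aged replicate 3 these values were up to 5 and 3.9% for deltaMG against control.

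Of 29 further genes of mature neutrophils, 13 were tested. With age 3 were called higher and 1 lower, at a median log2 fold change of 1.05. Of all tested genes 3.16% were called higher, and 124 of 4151 lower. Mxd1, a repressor that opposes Myc, rose 2.51-fold (limma adjusted p = 0.0353), Ifitm1, an interferon-induced membrane protein, rose 4.74-fold (limma adjusted p = 0.00727) and Clec4e, a receptor for microbial glycolipids, rose 2.68-fold (limma adjusted p = 0.0389). Ifitm1 reached 10 RPM in aged libraries only and was at most at 3.91 RPM elsewhere. It thus passed the filter through the group where it was high. Selplg, a selectin ligand that microglia also express, fell 1.45-fold (limma adjusted p = 0.0348). For deltaMG against control all 13 had a positive log2 fold change, as did 48% of all tested genes, with a median of 1.44 over the 13. Mxd1 was the one that passed, at 3.07-fold (limma adjusted p = 0.0439), where 1.2% of all tested genes were called higher. The count among the 13 with age ranged from 1 to 10 when single libraries were left out. Of all 4151 tested genes, 96 to 422 were then called in either direction. For deltaMG against control the count was at most 8, and at most 317 of all tested genes were called. The age calls of Mxd1 and Clec4e were each lost in 10 of 20 alternatives, that of Selplg in 9 and that of Ifitm1 in 1, and the call of Mxd1 for deltaMG against control was lost in 10.

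Of 8 neutrophil-attracting ligands and growth factors, the chemokine Cxcl2, a ligand of Cxcr2, passed the filter. It was at 3.62 to 6.23 RPM in young, 9.59 to 18.4 RPM in aged, 2.96 to 4.90 RPM in control and 9.55 to 11.2 RPM in deltaMG libraries. It reached 10 RPM in aged replicates 1 and 3 and in deltaMG replicate 1, so aged libraries carried it past the filter. It rose 2.30-fold with age (limma adjusted p = 0.0206), a call lost in 5 of 20 alternatives with an adjusted p of up to 0.105 (without young replicate 1). The other losses by leaving out a library were without aged replicates 1 and 3, at 0.0657 and 0.0789. For deltaMG against control the log2 fold change of 1.23 had a limma adjusted p of 0.0581. Cxcl5 and Csf3, the ligand of Csf3r, were listed at 0 in all libraries. Of 4 leukotriene genes 2 were tested and 0 called by limma, with 1 at an unadjusted p under 0.05 with age and 0 for deltaMG against control. Among higher genes, 9.66% and 8.87% of all tested genes reached that p.

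The genes whose centred profile was most like the mean profile of the 4 immature granule genes were Pglyrp1, Chil3, Mcemp1, Cd24a, Clec12a and Syne1. The root mean square difference over the 10 libraries was 0.25 to 0.26 log2 units, against a median of 0.99 over the 3500 genes whose mean reached 10 RPM. Pglyrp1 and Chil3 were also on the list of granule genes above. Nearest to the mean profile of the 4 mature neutrophil genes were Slc2a3, Mxd1, Il1rn, Mcemp1, Syne1 and Iqgap1, at 0.18 to 0.20 against a median of 0.84. That mean includes the nearly flat Csf3r. The 4 genes themselves lay further from it, Mmp9 at 0.24, Retnlg at 0.26, Cxcr2 at 0.40 and Csf3r at 0.70. Mcemp1 and Syne1 were near both mean profiles. The libraries share their amplification and scaling, so these values are a description.

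Markers of some other cells were also higher in the ageing comparison. In aged replicate 2 the monocyte sum and Mki67 lay above every young library, whereas the member sum lay within the young range. The 8 monocyte genes, of which 6 were tested, summed to 52.2 to 84.8 RPM in young, 143 to 435 RPM in aged, 48.8 to 60.5 RPM in control and 99.4 to 136 RPM in deltaMG libraries, and their highest library was also aged replicate 3. With age 5 of the 6 were called higher, namely Vcan, Ccr2, F13a1, Fn1 and Itga4, where 3.16% of all tested genes were. For deltaMG against control none was called by limma. There 4 of the 6 had an unadjusted p under 0.05, as did 8.87% of all tested genes among higher genes. Leaving out single libraries gave 2 to 6 called with age, and 96 to 422 of all 4151 tested genes called in either direction. The calls of Vcan and Ccr2 stayed in all 20 alternatives, while those of Itga4, Fn1 and F13a1 were lost in 11, 9 and 4. Vcan reached 10 RPM in aged libraries only, at most 9.44 RPM elsewhere, and so passed the filter through them. Mki67, a marker of dividing cells, which neutrophil precursors are, was at 20.2 to 71.2 RPM in young and 123, 126 and 342 RPM in aged libraries. All 3 tested cell cycle genes, Mki67, Top2a and Cenpf, rose with age (limma adjusted p = 0.0152, 0.00377 and 0.00817), where 3.16% of all tested genes were called higher. Top2a and Cenpf reached 10 RPM in aged libraries only, at most 9.55 and 7.41 RPM elsewhere. They thus passed the filter through the group where they were high. For deltaMG against control 0 of the 3 were called by limma and 0 had an unadjusted p under 0.05, at log2 fold changes of 0.82, 0.78 and 0.17. The microglial markers went the other way with age, at 5578 to 6260.1 RPM in young and 3615 to 4051 RPM in aged libraries. Of these 11 genes 7 fell with age, namely P2ry12, P2ry13, Gpr34, Cx3cr1, Siglech, Sall1 and Tmem119, where 124 of all 4151 tested genes were called lower. Leaving out single libraries gave 3 to 10 called, and the calls of Tmem119 and Sall1 were lost in 14 and 9 of 20 alternatives. In the Rab7 experiment the microglial sum was 5143.5 to 5362 RPM under the label control and 4679 to 6102 RPM under the label deltaMG, so these groups overlapped. There 1 microglial gene was called, Cx3cr1, which was higher under the label deltaMG. The part of these other markers in the members' differences was not tested.

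Other blood cells left few transcripts. The 8 erythroid genes, none of them past the filter, summed to 2.53 to 6.65 RPM in young, 4.998 to 13.7 RPM in aged, 0.0751 to 0.353 RPM in control and 2.46 to 10.1 RPM in deltaMG libraries. Hemoglobin gene Hba-a1 was listed at 0 in both libraries labelled control, and at 2.80 and 0.424 RPM in those labelled deltaMG. B cell genes summed to at most 3.05 RPM and T and NK cell genes to at most 6.10 RPM in any library, with Vpreb3 and Cd3g listed at 0 throughout. These sums lack Ighm and Trac, which were not among the gene symbols. Eosinophil genes summed to at most 19.4 RPM, in aged replicate 3. Platelet genes summed to at most 7.97 RPM and mast cell and basophil genes to at most 6.35 RPM.

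**Figure D5:**
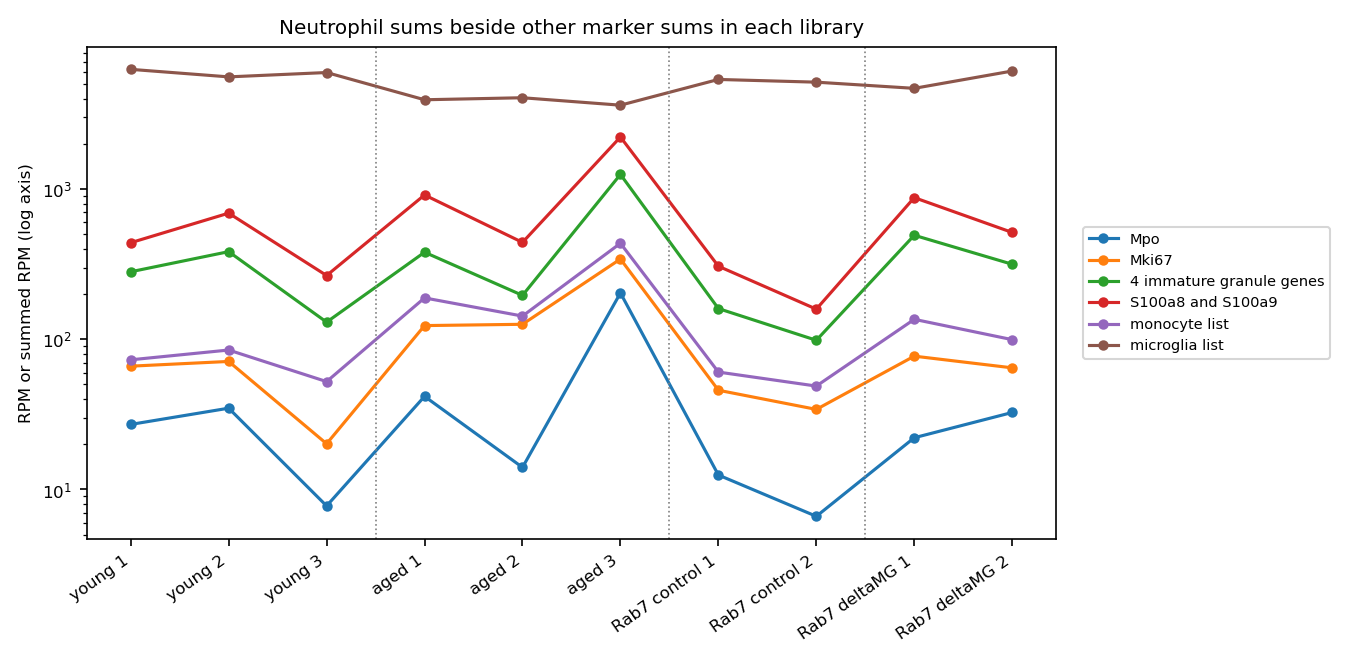
Summed RPM (log axis) of the immature granule genes, of S100a8 and S100a9, of the monocyte and microglia lists, and RPM of Mpo and Mki67, by library; lines only join values of 1 quantity. All but the microglia list peak in aged replicate 3, where the microglia list is lowest at 3615 RPM.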

How the data were processed

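Per the labels' protocols, NuGEN Ovation amplification of microglial RNA preceded Ion Xpress Plus library construction. FastQC and the builds GRCm38 and mm10 appear in the submitters' processing notes. Aligner, counter, annotation, strand setting and normalisation: not given in the sources used here. The deposited unit was taken as RPM, since low values in the authors' table were whole multiples of 1 step per library, 0.101 to 0.164 RPM, above a constant of 0.0001 that stands for 0. Of values up to 500 reads, 94.3% to 94.6% were within 0.05 of a whole read, so count models were not applied. The steps correspond to 6098267 to 9907464 reads behind the scaling.

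A gene was tested if 2 or more libraries reached 10 RPM (4151 genes, all 10 members among them). Values of log2(RPM + 1) were fitted by limma 3.58.1 (R 4.3.3) with 4 group means, a common spread (6 residual degrees of freedom) and a prior variance that follows the mean level. Contrasts were aged minus young, deltaMG minus control, and their difference. A Benjamini-Hochberg adjusted p under 0.05 over all tested genes was a call. The fit was tested on simulated data. Exon lengths are from GENCODE M21. Alternatives covered the filter, pseudocount, scaling, samples, replicate block, prior variance, weights, each library and the make-up of the stage sets. The members and lists were chosen with earlier results of these data known. All members were named, and list genes where called. Other named list genes (such as Mpo, Elane, Lcn2 and Cebpe), and the departure of Cxcr2 in aged replicate 2, were chosen after their values were seen. Figures were drawn with matplotlib 3.10.9. One microglial marker of the fixed list is not reported here, and the list was summed and counted without it.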

Additional observations from a re-analysis of the deposited data

Results flagged for a closer look

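In 3 genes of the surrounding lists the effect under the Rab7 labels differed from the effect of age by limma's test of that difference. For Vcan, a proteoglycan on the monocyte list, the difference, Rab7 effect minus age effect, was -2.86 on the log2 scale (limma adjusted p = 0.00596). Vcan was at 24.4 to 72.6 RPM in aged, 2.52 to 4.43 RPM in young, 4.01 and 6.35 RPM in control and 9.44 and 5.21 RPM in deltaMG libraries. It thus passed the filter of 10 RPM through the aged libraries only. For Cd34 the difference was -1.17 (limma adjusted p = 0.0329), and it was no longer past the threshold in 6 of 19 alternatives, with an adjusted p of up to 0.212 without control replicate 1. The difference for Vcan missed it in 1 of 19 and that for Cx3cr1 in 0 of 19. For Cx3cr1, the fractalkine receptor on the microglia list, it was 2.05 (limma adjusted p = 2.33e-05). Cx3cr1 was at 1068 to 1174 RPM in young and 689 to 741 RPM in aged libraries, and at 398 and 437 RPM in control and 965 and 1285 RPM in deltaMG libraries, so both control libraries lay below every other library. For Cd34 both control libraries, at 80.9 and 61.1 RPM, lay above every other library, at 23.5 to 37.9 RPM. None of the 10 neutrophil genes met the test of the difference. Groups of 2 or 3 libraries are too small for a test of a single outlying library.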

How the results depend on the processing

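The numbers of called members, 1 in each comparison, were set by the processing. With age they were 0 without a filter, with own groups only and with a replicate block, and 0 to 8 when single libraries were left out, 8 without aged replicate 2 and 0 without young replicate 1 or 3. For deltaMG against control they were 2 with a minimum of 1 RPM or with median-of-ratios rescaling, and 0 without a filter and with a replicate block. They were 9 with own groups only, a fit whose count is not relied on, and 8 with array weights. They were 0 to 9 when single libraries were left out, 9 without aged replicate 3, 7 without aged replicate 2, 2 without young replicate 3, and 0 without any single library of the Rab7 experiment. A lone library of an arm is then assumed to vary like the other groups. The cause of these shifts was not tested. The members' median stayed positive, at 0.36 to 1.57 with age and 1.26 to 2.08 for deltaMG against control. The log2 ratio of immature to mature genes, deltaMG minus control, was 0.87, and 0.38 with S100a8 and S100a9 counted as mature, 0.11 with equal weights and -0.43 without Csf3r, and 0.59 to 1.15 without single libraries. Camp with age was -0.15 to 1.47 without single libraries. For the difference of effects S100a8 ran from -0.30 to 0.85, S100a9 from -0.03 to 1.14 and Csf3r from -0.21 to 0.07, the last at 0.02 with array weights. Over all genes, calls with age were 255, and 66 with the replicate block. Median-of-ratios rescaling gave 221 higher and 107 lower, against 131 and 124.

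Same-numbered libraries of the ageing groups deviated from their group means with r of -0.14, -0.24 and -0.39 over genes, so the numbers were not taken to pair these libraries. With 2 libraries a group the Rab7 experiment gives a single value, 0.12, from which pairing cannot be judged. Camp, with 17 reads in its lowest library, is the member most limited by depth.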
